A study of Mus musculus with 22 samples.

Results

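Neutrophils are short-lived white blood cells that the marrow makes in large numbers, and the 36 genes described here follow them from the promyelocyte to the cell that leaves the marrow. They were chosen by name, from the proteins that neutrophil precursors pack into granules, the regulators of that step, and the receptors and enzymes of ripe cells. All were matched to their Ensembl identifiers: 36 of 36 were among the 25471 genes of the tables, and 36 of 36 were among the 18793 genes with enough counts for testing. The lowest count of any of them in any library was 74, for Clec4d, a C-type lectin receptor gene.

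Granules are filled in waves as the cell ripens. Promyelocytes make azurophil granules with myeloperoxidase and serine proteases, myelocytes make specific granules with lactoferrin and cathelicidin, and later stages add gelatinase granules and the receptors with which the cell senses chemokines and bacterial peptides. Precursors and a reserve of ripe neutrophils both sit in bone marrow, so that a piece of bone with its marrow cavity carries RNA of every stage.

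RNA came from the middle stretch of the ulna, a bone of the forearm, in 11 mice, and each mouse gave its mechanically loaded right ulna and its non-loaded left one. The 22 libraries form 4 groups: CKO loaded (n = 4), CKO non-loaded (n = 4), WT loaded (n = 7) and WT non-loaded (n = 7). The labels give the CKO mice as conditional knockouts of Tlr4, the lipopolysaccharide receptor gene, and the others as wildtype (WT), and the title of the series concerns this gene in osteoblasts. The labels name no allele, Cre driver, strain, age, loading regime or time of harvest, so the cells that lose the gene, and whether neutrophils are among them, cannot be read from the labels. Levels below are CPM (counts scaled to a common library size) after TMM scaling, and log2 fold changes, standard errors (SE) and p-values adjusted over all tested genes are from edgeR's quasi-likelihood test.

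Libraries held 21999891 to 42833729 counts. Tlr4 itself stood at 29.2 ± 3.16 CPM in CKO loaded (SD, n = 4), 30.1 ± 3.43 in CKO non-loaded, 33.4 ± 4.82 in WT loaded (n = 7) and 32.5 ± 4.89 in WT non-loaded ulnae; a count over the whole gene does not show the loss of 1 exon or a loss in 1 cell type. Ltbp2, singled out after its values were seen, lay at 205 to 344 CPM in 7 of 8 CKO libraries and at 26.5 to 73.5 CPM in 13 of 14 WT libraries. The exceptions were CKO loaded 688, at 38.4 CPM, and WT loaded 686, at 380.2 CPM, each nearer the level of the other genotype. Whether these 2 loaded libraries were exchanged cannot be told from the labels; they are used as labelled, every value of mice 686 and 688 depends on it, and results are also given without both mice. Skeletal muscle genes took 3.02% (CKO non-loaded 691) to 17.1% (CKO loaded 698) of the counts, and markers of osteoblasts, erythroid cells, B and T cells, monocytes and eosinophils were all present.

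The stretches before the start sites of 6 of the genes are printed here because the 36 genes varied together from library to library, with the azurophil genes somewhat apart. They are the member with the highest CPM of each of 4 roles, which are Mpo (azurophil), Ngp (specific granule), S100a8 (cytosol) and Retnlg (ripe cell), and the azurophil genes Elane and Prtn3. Sequences are from RefSeq (GRCm38.p6), plus strand, 5′ to 3′, from 250 bases before the RefSeq start up to that start or to the first base that GENCODE M21 annotates as an exon of the gene. Capitals mark a C/EBP-type motif, TTNNGNAA or TTNCNNAA on the other strand, and a PU.1-type motif, GAGGAAG or CTTCCTC on the other strand. The positions are chr11:87793534-87793580 for Mpo, chr10:79886062-79886246 for Elane, chr10:79879417-79879613 for Prtn3, chr9:110419558-110419746 for Ngp, chr3:90668821-90668977 for S100a8 and chr16:48872358-48872607 for Retnlg.
Mpo: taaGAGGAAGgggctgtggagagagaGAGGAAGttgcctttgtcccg
Elane: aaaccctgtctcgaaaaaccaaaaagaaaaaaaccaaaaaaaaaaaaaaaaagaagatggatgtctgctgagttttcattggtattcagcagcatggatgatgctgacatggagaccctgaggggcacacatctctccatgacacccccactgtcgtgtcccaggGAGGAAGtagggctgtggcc
Prtn3: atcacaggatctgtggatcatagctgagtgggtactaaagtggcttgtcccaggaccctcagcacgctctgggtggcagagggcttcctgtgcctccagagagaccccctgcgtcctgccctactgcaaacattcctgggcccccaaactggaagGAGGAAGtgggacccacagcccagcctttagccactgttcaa
Ngp: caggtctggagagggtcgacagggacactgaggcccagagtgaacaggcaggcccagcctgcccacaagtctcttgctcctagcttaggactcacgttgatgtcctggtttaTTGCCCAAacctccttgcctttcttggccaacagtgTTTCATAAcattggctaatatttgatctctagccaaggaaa
S100a8: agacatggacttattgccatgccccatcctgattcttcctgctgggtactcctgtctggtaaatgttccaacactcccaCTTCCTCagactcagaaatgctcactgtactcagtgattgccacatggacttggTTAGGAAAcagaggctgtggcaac
Retnlg: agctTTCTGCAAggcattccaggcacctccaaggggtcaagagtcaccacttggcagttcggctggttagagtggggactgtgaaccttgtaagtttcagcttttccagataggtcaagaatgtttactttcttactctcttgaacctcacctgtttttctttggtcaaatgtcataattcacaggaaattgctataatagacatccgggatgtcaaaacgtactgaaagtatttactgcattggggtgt

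The azurophil stretches hold the PU.1-type motif, a pair of them close together in Mpo, and none of the C/EBP type, whereas those of Ngp and Retnlg hold the C/EBP type and that of S100a8 holds both. RefSeq's table has starts for 32 of the 36 genes; Cebpe, Hp, Trem3 and Ncf4 are not in it. Over the 250 bases before the start, the PU.1-type motif was found in 14 of 32 genes (43.8%), against 3244 of 27025 genes in the table. The C/EBP-type motif was found in 17 of 32 (53.1%), against 40.3%. By role the PU.1-type motif was present in 4 of 5 azurophil, 4 of 9 specific granule and 5 of 13 ripe-cell genes, and the C/EBP type in 1 of 5, 7 of 9 and 6 of 13. Motifs of the GFI1 type (AAATCA or TGATTT), at 12.5% of the 32 against 14.2% of all, and of the RUNX type (TGTGGT or ACCACA), at 15.6% against 15.9%, were about as common as elsewhere. Cybb, the highest of the oxidase genes, had neither a PU.1-type nor a C/EBP-type match. A match is a run of letters and no evidence of binding, and no match says nothing about the factor.

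Per length of annotated exons, the alarmins and several specific granule genes stood highest. Of the 14 ripe-cell genes only Retnlg stood above the azurophil genes Mpo, Elane, Prtn3 and Ctsg. Several others, with Lrg1 (50.0 RPKM) the highest of them, stood above the azurophil gene Ms4a3 (15.6 RPKM). Mean RPKM over the 22 libraries was 1916 for S100a9 and 1469 for S100a8, the subunits of calprotectin, a metal-binding protein that fills the cytosol of neutrophils. Next came Ngp (1135), a cathelicidin-related granule protein gene of the mouse, and Camp (412), which encodes the antimicrobial peptide precursor cathelicidin. Chil3, Retnlg, Ltf and Lcn2 lay between 224 and 273, and the azurophil genes Mpo and Elane followed at 145 and 143 RPKM. The lowest levels were those of Gfi1 (5.26), Clec4d (4.87) and Trem1 (3.77 RPKM), a transcription factor and surface receptors.

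Together the 36 genes took 0.366% of all counts in CKO loaded 698, the lowest library, and 2.76% in WT non-loaded 699, the highest. By group their share was 0.617 ± 0.169% in CKO loaded, 1.05 ± 0.703% in CKO non-loaded, 0.853 ± 0.415% in WT loaded and 0.877 ± 0.842% in WT non-loaded ulnae (SD). All groups overlapped in this share. Within the share the makeup by role was much alike for the largest role. Specific granule genes made up 52.1 ± 2.29%, 52.0 ± 2.14%, 52.8 ± 1.37% and 52.4 ± 2.36% of the members' counts in the same order of groups, and the azurophil genes 11.4 ± 3.03%, 9.64 ± 1.45%, 11.2 ± 2.18% and 10.3 ± 1.93%. The alarmins S100a8 and S100a9 made up 23.4 ± 0.43%, 25.2 ± 1.32%, 22.3 ± 2.78% and 23.8 ± 3.34%. Their CKO loaded values, 23.00 to 23.97%, lay just below the CKO non-loaded values, 24.01 to 27.05%. Both overlapped the WT values of either limb. The nearest edges were 23.97% in the loaded ulna of mouse 691 and 24.01% in the non-loaded ulna of mouse 688. Both ranges include mouse 688, whose loaded library was nearer the Ltbp2 level of the other genotype. This separation was singled out among the roles, and how often roles or genes separate so was not computed. In bulk RNA fewer cells of a type and less RNA per cell cannot be told apart.

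**Figure D1:**
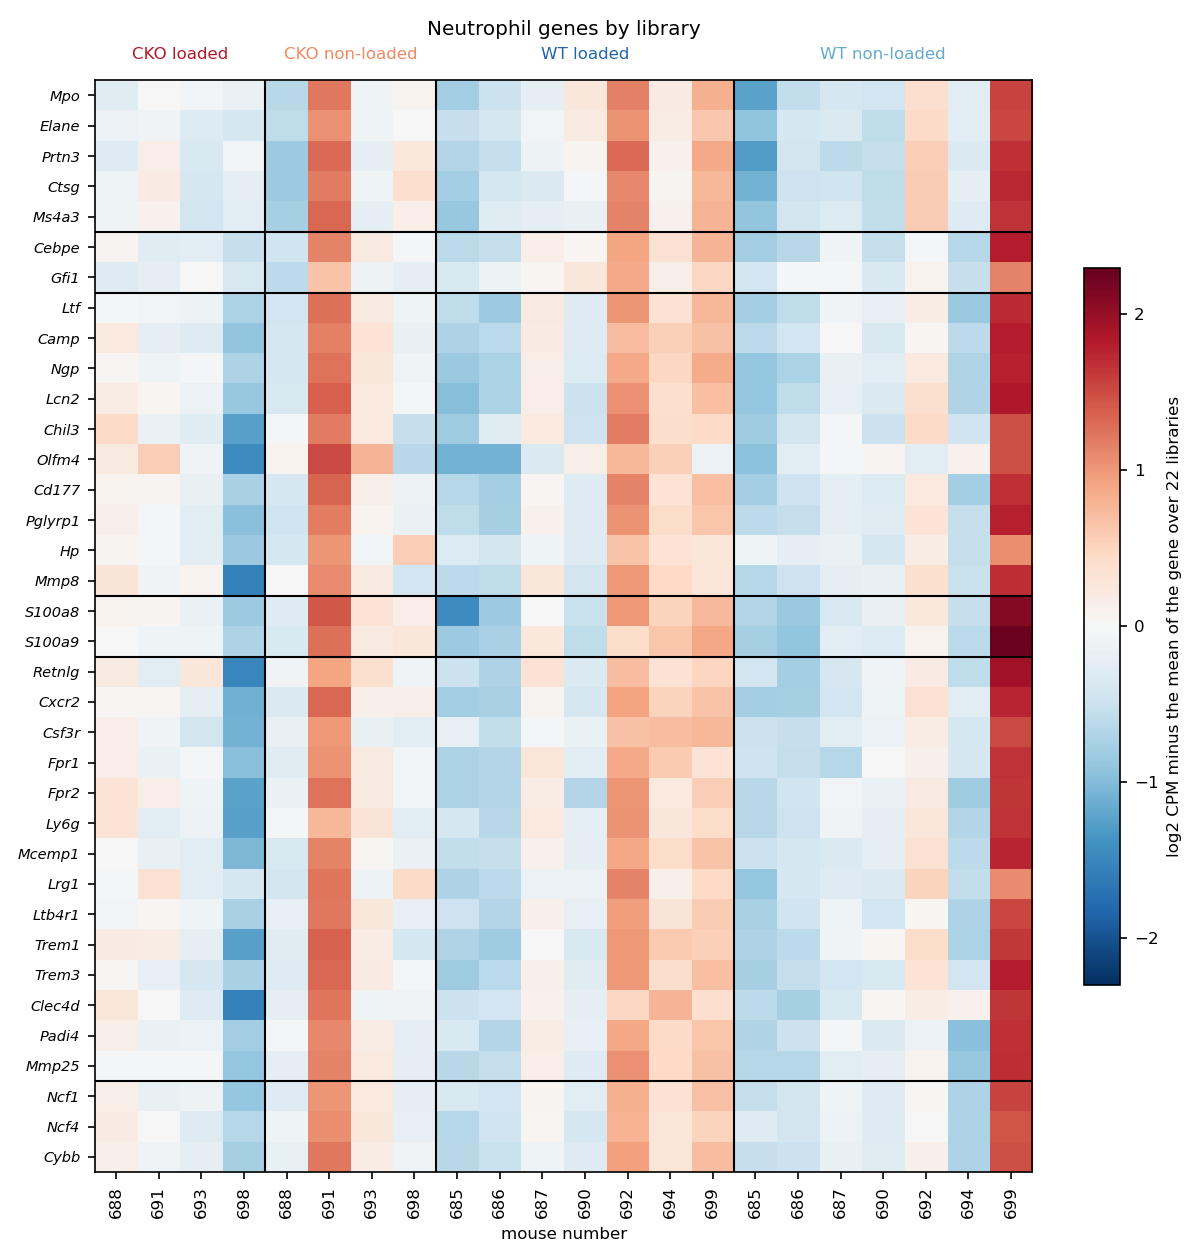
Log2 CPM of the 36 genes (lines, grouped by role) in the 22 libraries (columns, by group and mouse number), minus the mean of each gene over all libraries, with red above and blue below the mean. WT non-loaded 699 and CKO non-loaded 691 are red for every gene, and CKO loaded 698 is pale for the azurophil genes and blue for most granule and ripe-cell genes.

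Most of the variation was shared by the whole group of genes. WT non-loaded 699 had the highest level of 34 of the 36 genes, and CKO non-loaded 691 of the other 2, Olfm4 and Lrg1. CKO loaded 698 had the lowest level of 18 genes, 10 of ripe cells, 6 of specific granules and 2 of the oxidase, and WT non-loaded 685 of 10, among them all 5 azurophil genes. The highest library stood 3.36-fold (Gfi1) to 11.8-fold (S100a8) over the lowest, with a median of 6.49-fold over the genes. Over the 630 pairs of genes the median correlation of log2 CPM across 22 libraries was 0.918 and the lowest 0.630. Without WT non-loaded 699 and CKO non-loaded 691 the median was 0.854 and the lowest 0.385 (n = 20); these correlations describe libraries that share mice and a scaling.

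The azurophil genes are the early end of the series. Mpo encodes myeloperoxidase, which makes hypochlorous acid from hydrogen peroxide, and lies on chromosome 11 (87793581 to 87804413, GRCm38). Mpo stood at 363, 447, 425 and 397 CPM in the loaded ulnae of CKO mice 688, 691, 693 and 698, against 283, 1030.4, 414 and 465.8 CPM in their non-loaded ulnae. In WT mice Mpo ran from 253 over a median of 501 to 984 CPM in loaded ulnae and from 189 over 339 to 1292 CPM in non-loaded ulnae. The loaded CKO values lay close together and inside the range of every other group, and the top values belonged to WT non-loaded 699, CKO non-loaded 691 and WT loaded 692. Elane, neutrophil elastase, Prtn3, proteinase 3, and Ctsg, cathepsin G, are serine proteases of the same granules, and Ms4a3 is a membrane protein gene expressed in promyelocytes and their precursors. Their means over the 22 libraries were 141, 130.0, 62.4 and 29.4 CPM, and each had its highest value in WT non-loaded 699 and its lowest in WT non-loaded 685. Prtn3 and Elane are neighbours on chromosome 10, 3.07 kb apart, and their levels had a correlation of 0.977 over 22 libraries. Exons of Mpo overlap those of Gm11505 and exons of Prtn3 those of Plppr3 on the other strand; the labels do not say whether the counting used strand.

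Of the transcription factors, Cebpe drives the switch to specific granules and Gfi1 represses the alternative monocyte programme. Cebpe stood at 30.6, 24.2, 24.7 and 20.3 CPM in the loaded ulnae of CKO mice 688, 691, 693 and 698, against 21.4, 64.9, 33.7 and 28.6 CPM in their non-loaded ulnae. In WT mice Cebpe ran from 19.2 over a median of 32.8 to 54.9 CPM in loaded ulnae and from 16.8 over 20.0 to 103 CPM in non-loaded ulnae. Loaded CKO values stayed within 20.3 and 30.6 CPM, while each of the other groups held at least 1 library over 50 CPM. Gfi1 in CKO mice was at 13.01, 13.6, 15.98 and 12.3 CPM loaded and 10.4, 25.2, 14.7 and 13.9 CPM non-loaded, in the same order of mice. WT values of Gfi1 spanned 12.4 to 29.1 CPM (median 17.4) loaded and 11.1 to 35.05 CPM (median 15.6) non-loaded. Gfi1 varied least of the 36 genes, and its groups overlapped. Exons of Gfi1 overlap those of A430072P03Rik on the other strand.

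The specific and later granule genes were the largest part of the members' counts. Ngp stood at 1261, 1138, 1187 and 744 CPM in the loaded ulnae of CKO mice 688, 691, 693 and 698, against 929, 2905, 1462 and 1155 CPM in their non-loaded ulnae. In WT mice Ngp ran from 669 over a median of 1329.6 to 2231 CPM in loaded ulnae and from 660.1 over 1032 to 4222 CPM in non-loaded ulnae. CKO loaded 698 lay below the other 3 loaded CKO ulnae, but within the WT range of either limb. Ltf (lactoferrin), Camp, Lcn2 (lipocalin 2, which binds bacterial siderophores), Chil3 (a chitinase-like protein), Cd177 (a surface glycoprotein of neutrophils), Pglyrp1 (a peptidoglycan recognition protein) and Mmp8 (neutrophil collagenase) followed the same libraries, with correlations of 0.940 to 0.994 with the mean of the other members. Olfm4, a glycoprotein of a subset of neutrophils, did so least of the 36, at 0.811. Olfm4 in CKO mice was at 38.9, 50.0, 32.0 and 12.4 CPM loaded and 35.7, 96.4, 57.7 and 21.7 CPM non-loaded, in the same order of mice. WT values of Olfm4 spanned 15.7 to 57.3 CPM (median 30.8) loaded and 17.4 to 93.7 CPM (median 33.2) non-loaded. Hp, haptoglobin, which binds free haemoglobin and is also made by the liver and by fat, had a narrow range, 3.76-fold from the lowest to the highest library. Hp in CKO mice was at 215, 199.5, 171 and 114 CPM loaded and 154, 412, 197 and 304 CPM non-loaded, in the same order of mice. WT values of Hp spanned 153 to 323 CPM (median 192) loaded and 141 to 428 CPM (median 185) non-loaded. In both genes all groups overlapped. Olfm4 shares exon sequence on its own strand with Gm6999, so its counts are less certain than the others.

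S100a8 and S100a9 lie 22.6 kb apart on chromosome 3 and had a correlation of 0.963. S100a8 stood at 904, 888, 770.0 and 480.2 CPM in the loaded ulnae of CKO mice 688, 691, 693 and 698, against 698, 2308, 1057 and 953 CPM in their non-loaded ulnae. In WT mice S100a8 ran from 314 over a median of 851 to 1712 CPM in loaded ulnae and from 474 over 660.0 to 3711 CPM in non-loaded ulnae. The loaded CKO ulnae were spread less than any other group. S100a9 in CKO mice was at 842, 791, 791 and 517 CPM loaded and 666, 2038, 978 and 1010.3 CPM non-loaded, in the same order of mice. WT values of S100a9 spanned 472 to 1559.9 CPM (median 1002) loaded and 452 to 4036 CPM (median 676) non-loaded. WT non-loaded 699 had more than 3 times the S100a8 level of any other WT non-loaded ulna, and CKO non-loaded 691 more than 2 times that of any other CKO non-loaded ulna. The loaded CKO values lay within the WT loaded range for both genes.

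The genes of ripe neutrophils encode what the cell needs in the blood and in tissue. Retnlg, a resistin-like protein gene, was the highest of the 14. Retnlg stood at 149, 109, 155 and 45.9 CPM in the loaded ulnae of CKO mice 688, 691, 693 and 698, against 122, 244, 168 and 122 CPM in their non-loaded ulnae. In WT mice Retnlg ran from 79.3 over a median of 162 to 212 CPM in loaded ulnae and from 75.3 over 98.9 to 496 CPM in non-loaded ulnae. CKO loaded 698 was the lowest of all 22 libraries here, and the next lowest of its group stood at 109 CPM. Cxcr2, the receptor for neutrophil-attracting chemokines, and Csf3r, the receptor for granulocyte colony-stimulating factor, are among the receptors with known parts in ripening and release. Cxcr2 in CKO mice was at 59.9, 60.9, 50.5 and 27.4 CPM loaded and 47.0, 148, 63.9 and 64.7 CPM non-loaded, in the same order of mice. WT values of Cxcr2 spanned 34.3 to 112 CPM (median 61.6) loaded and 34.2 to 199 CPM (median 49.0) non-loaded. CKO loaded 698 was again the lowest of all. Csf3r in CKO mice was at 85.3, 72.4, 57.4 and 36.2 CPM loaded and 68.0, 154, 68.0 and 64.7 CPM non-loaded, in the same order of mice. WT values of Csf3r spanned 51.9 to 131 CPM (median 74.8) loaded and 53.2 to 219 CPM (median 65.3) non-loaded. The groups overlapped in both, and loaded CKO ulnae held no value over 85.3 CPM of Csf3r, against 3 such values among the 7 WT loaded ulnae.

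Ltb4r1 is the leukotriene B4 receptor gene, Mcemp1 encodes a membrane protein of mast cells and myeloid cells, Lrg1 a secreted glycoprotein that neutrophils store, and Trem3 an activating receptor. Ltb4r1 in CKO mice was at 18.6, 20.1, 18.3 and 11.6 CPM loaded and 17.2, 45.1, 23.5 and 17.2 CPM non-loaded, in the same order of mice. WT values of Ltb4r1 spanned 12.3 to 38.2 CPM (median 21.3) loaded and 11.6 to 56.9 CPM (median 14.4) non-loaded. Loaded and non-loaded values overlapped in both genotypes. Mcemp1 in CKO mice was at 24.9, 21.9, 20.8 and 11.96 CPM loaded and 19.0, 54.1, 25.5 and 22.2 CPM non-loaded, in the same order of mice. WT values of Mcemp1 spanned 16.6 to 45.6 CPM (median 26.2) loaded and 16.2 to 82.9 CPM (median 19.6) non-loaded. CKO loaded 698 had the lowest value of its group in both genes, and WT non-loaded 699 the highest of all libraries. Lrg1 in CKO mice was at 62.9, 82.1, 54.2 and 48.5 CPM loaded and 47.8, 151, 59.2 and 86.9 CPM non-loaded, in the same order of mice. WT values of Lrg1 spanned 39.3 to 142 CPM (median 58.6) loaded and 34.6 to 136 CPM (median 50.8) non-loaded. CKO non-loaded 691, WT loaded 692 and WT non-loaded 699 were close at the top. Trem3 in CKO mice was at 15.0, 12.9, 11.3 and 8.76 CPM loaded and 11.96, 36.6, 16.8 and 14.4 CPM non-loaded, in the same order of mice. WT values of Trem3 spanned 8.33 to 29.5 CPM (median 15.95) loaded and 8.64 to 51.2 CPM (median 10.8) non-loaded. Lrg1 differed from the other ripe-cell genes in having its top value in CKO non-loaded 691. The formyl peptide receptor genes Fpr1 and Fpr2, the surface marker Ly6g, the receptor genes Trem1 and Clec4d, Padi4 (the histone-modifying enzyme of extracellular traps) and the membrane protease gene Mmp25 averaged 7.79 to 32.6 CPM and had their highest values in WT non-loaded 699. Fpr1 and Fpr2, 3.88 kb apart on chromosome 17, and Trem1 and Trem3, 0.853 kb apart on the same chromosome, had correlations of 0.936 and 0.947. Fpr2 shares exon sequence on its strand with Fpr3.

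Cybb, Ncf1 and Ncf4 encode subunits of the phagocyte oxidase, which neutrophils share with monocytes and macrophages. Cybb stood at 233, 200.2, 183 and 126 CPM in the loaded ulnae of CKO mice 688, 691, 693 and 698, against 188, 491, 239 and 201 CPM in their non-loaded ulnae. In WT mice Cybb ran from 137 over a median of 199 to 411 CPM in loaded ulnae and from 130.4 over 175 to 593 CPM in non-loaded ulnae. As with the granule genes, 699 and 691 were the high non-loaded ulnae and CKO loaded 698 the lowest of all. Ncf1 and Ncf4 averaged 186 and 33.8 CPM. Exons of Ncf1 overlap those of Gtf2ird2 on the other strand.

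**Figure D2:**
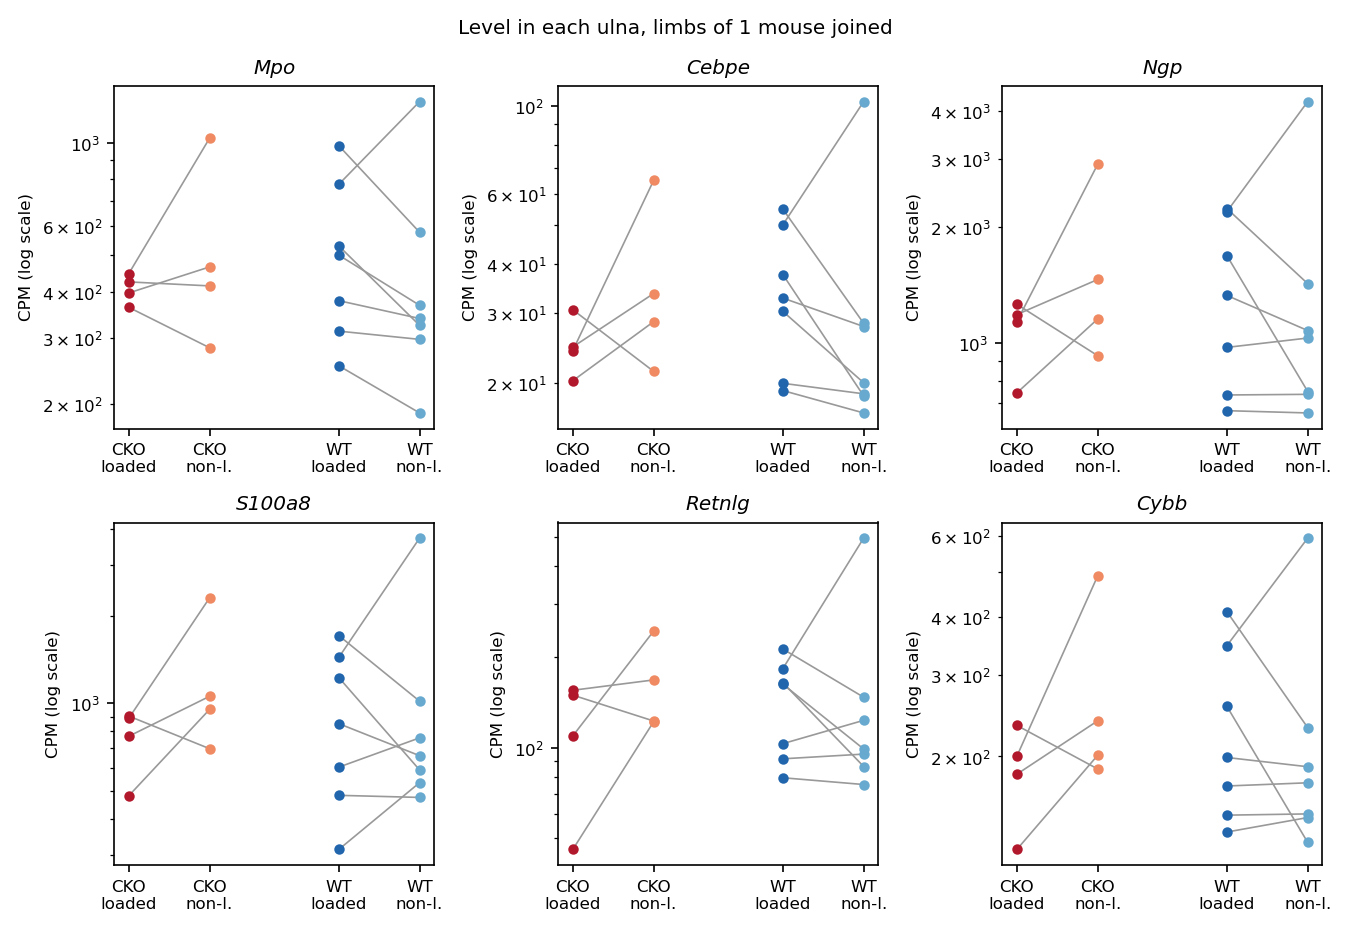
CPM (log scale) of the highest-level gene of each role in every ulna, with the loaded and non-loaded ulna of 1 mouse joined by a line, CKO left and WT right. Lines run in both directions in each genotype, and the highest points of the non-loaded columns are CKO 691 and WT 699.

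Early genes were then set against ripe-cell genes, as the mean log2 CPM of the 5 azurophil genes minus that of the 14 ripe-cell genes in each library. This difference sets early genes against ripe-cell genes from library to library, and its absolute size has no meaning of its own. Whether it follows the stages of neutrophils or the content of other cells was not tested. It ran from 1.40 in CKO non-loaded 688 to 2.75 in CKO loaded 698, with an SD of 0.328 over the 22 libraries. The same difference for the specific granule genes ran only from 3.08 to 3.36, with an SD of 0.0693. The specific granule and ripe-cell means had a correlation of 0.995 over libraries, the oxidase and ripe-cell means 0.984, and the azurophil and ripe-cell means 0.879. Without WT non-loaded 699 and CKO non-loaded 691 the specific granule value was 0.990 and the azurophil value 0.766 (n = 20). Among themselves the azurophil genes stayed together, with a median correlation of 0.978 over pairs and 0.964 without these 2 libraries.

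By mouse, the mean of both ulnae averaged 1.93 ± 0.42 in CKO (SD, n = 4) and 1.92 ± 0.20 in WT (n = 7). CKO mice held both the lowest value, 1.51 in mouse 688, and the highest, 2.47 in mouse 698. The loaded ulna was above the non-loaded one in 4 of 4 CKO mice, by 0.21 in 688, 0.03 in 691, 0.13 in 693 and 0.55 in 698, and the mean limb difference was 0.23 ± 0.23. It was 0.13 without mouse 698. In WT mice the limb difference was 0.07 ± 0.41 and above 0 in 4 of 7, from -0.61 in 694 to 0.71 in 690. The values of WT and CKO mice overlapped, and no test was made of this score, since its genes were picked by hand. In mouse 690 the loaded ulna stood at 2.26 and the non-loaded at 1.55, and in mouse 694 the loaded at 1.60 and the non-loaded at 2.22. Across the 11 mice Pearson's r between the loaded and the non-loaded value was 0.436 and Spearman's rho 0.209.

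**Figure D3:**
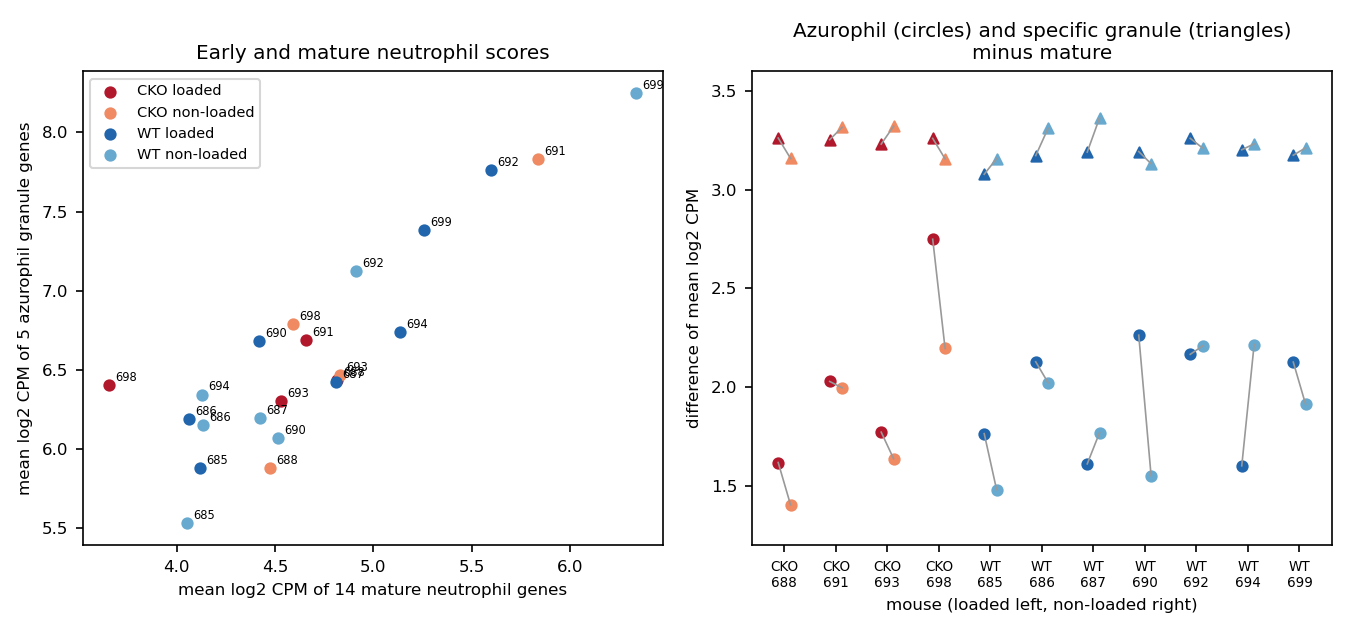
Left, mean log2 CPM of the 5 azurophil genes against that of the 14 ripe-cell genes in each library, coloured by group and marked with the mouse number. Right, the azurophil mean (circles) and the specific granule mean (triangles) minus the ripe-cell mean in the loaded (left) and non-loaded (right) ulna of each mouse. The triangles stay between 3.08 and 3.36 while the circles spread from 1.40 to 2.75, with the highest in CKO loaded 698.

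Mpo minus S100a8, the difference in log2 CPM of a single early and a single abundant late gene, gave another view. The loaded ulna had the higher value in 3 of 4 CKO and 5 of 7 WT mice, with limb differences of 0.35 ± 0.34 and 0.30 ± 0.67. Among the members outside both sets, those whose level relative to the ripe-cell mean followed the early-minus-mature difference most closely were Cd177, with a correlation of 0.59 over 22 libraries, and Cebpe, with 0.57. Among the ripe-cell genes Lrg1 (0.77) and Trem3 (0.68) followed it most, and Retnlg (-0.66) and Ly6g (-0.44) ran against it, as did the collagenase gene Mmp8 (-0.64). Of other neutrophil genes not among the 36, Cst7 (0.89), Prss57 (0.87), a protease gene of azurophil granules, and Serpinb1a (0.71), an inhibitor of those proteases, had the highest values. Nlrp12 (-0.62) and Adam8 (-0.52) had the lowest. Both sides of each of these correlations subtract the same ripe-cell mean, so they order the genes and measure nothing more.

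Loading was compared within each genotype. In CKO mice 0 of 36 genes passed the threshold of an adjusted p under 0.05 in either direction, where 0.016% of all genes tested (3) did in edgeR. At an unadjusted p under 0.05 the count was also 0 of 36, against 3.6% of all genes, and DESeq2 and limma voom called 0 as well, each with 0 at an unadjusted p under 0.05. All 36 log2 fold changes (loaded over non-loaded) were below 0, from -0.74 to -0.23, with a median of -0.56, against a median of -0.01 over all genes. By role the medians were -0.46 for the azurophil, -0.40 for the transcription factor, -0.59 for the specific granule, -0.70 for the alarmin, -0.55 for the ripe-cell and -0.51 for the oxidase genes. Some other lists also had medians below 0 in this comparison, with every tested gene below 0. The medians of these lists were -0.86 for the 8 eosinophil, -0.69 for the 6 osteoclast, -0.67 for the 6 megakaryocyte and -0.63 for the 8 T and NK cell genes. They were -0.55 for the 8 B lineage, -0.49 for the 9 erythroid and -0.47 for the 10 monocyte and macrophage genes. Progenitor genes had a median of -0.35 with 2 of 6 above 0, and basophil and mast cell genes -0.29 with 3 of 8 above 0. It was 0.03 for osteoblast and 0.43 for osteocyte genes, and 0.55 for the 20 muscle genes, all above 0. The members with the smallest p were Hp (-0.61 ± 0.34, SE), Trem3 (-0.74 ± 0.51) and Cxcr2 (-0.70 ± 0.52), each at an adjusted p of 0.739 in edgeR. S100a8 stood at -0.72 ± 0.61 (edgeR adjusted p = 0.739) and Mpo at -0.43 ± 0.50 (adjusted p = 0.768).

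As labelled, the 4 CKO mice did not share this direction, and the exception was mouse 688. Its loaded library was nearer the Ltbp2 level of the other genotype, and whether this bears on the direction was not tested. The loaded ulna was higher for 36 of 36 genes in mouse 688, with a median limb difference of 0.40 on the log2 scale, and lower for 36 of 36 in 691 (median -1.199) and in 698 (-0.73) and for 34 of 36 in 693 (-0.31). Of all genes tested, 47.7% to 49.6% were higher in the loaded ulna of these mice. Within a mouse the 36 genes share cells and a library, so their agreement is 1 observation and not 36. Without mouse 691 the median fold change over the genes was -0.18 and without 688 it was -0.82, and without mice 686 and 688 together it was -0.84; 0 of 36 were called in each case. With the muscle score, the mean log2 CPM of 20 skeletal muscle genes, as a covariate the median was 0.07, with 30 of 36 genes above 0. Muscle genes took 13.9 ± 2.22% of counts in the loaded ulnae of CKO mice and 10.1 ± 5.23% in their non-loaded ulnae. The score comes from the same libraries, and the part of muscle in these fold changes was not tested.

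In WT mice loading likewise gave 0 of 36 called genes, where 0.00532% of all genes (1) were called in edgeR, and 0 of 36 at an unadjusted p under 0.05, against 2.34% of all genes. DESeq2 and limma voom also called 0, with 0 at an unadjusted p under 0.05. The log2 fold changes lay between -0.26 and 0.15 with a median of -0.02, against -0.01 over all genes, and 15 of 36 were above 0. All 5 azurophil genes lay between -0.04 and 0.14, and both transcription factor genes were above 0. Among lists of other cells the medians were 0.29 for erythroid, 0.15 for megakaryocyte, 0.09 for B lineage and 0.06 for progenitor genes. For monocyte and macrophage genes the median was 0.05, and it was -0.01 for T and NK cell genes. It was -0.09 for muscle, -0.09 for basophil and mast cell and -0.10 for eosinophil genes. Osteocyte, osteoblast and osteoclast genes had -0.28, -0.31 and -0.33. The smallest p-values belonged to Gfi1 (0.15 ± 0.24), Olfm4 (-0.23 ± 0.39) and S100a9 (-0.26 ± 0.45), each at an adjusted p of 0.9998 in edgeR. S100a8 stood at -0.22 ± 0.46 and Mpo at 0.14 ± 0.38, both also at 0.9998.

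This small median joined mice with large and opposite differences. The loaded ulna was higher for 36 of 36 genes in WT 692 (median 0.72) and 694 (0.98) and for 35 of 36 in 687 (0.25), and lower for 36 of 36 in 699 (-1.04). Mice 685 (0.02), 686 (-0.08) and 690 (-0.02) had 23, 12 and 17 of 36 genes higher in the loaded ulna. Over all genes tested 46.0% to 54.3% were higher in the loaded ulna of the WT mice. By gene, the loaded ulna was higher in 3 of 7 WT mice for 7 genes, in 4 for 13 and in 5 for 10. It was higher in 6 of 7 for 6 genes (Mpo, Elane, Ctsg, Ms4a3, Cebpe and Chil3), with 699 the exception. Elane in 686 and Chil3 in 685 differed by almost nothing, and Ctsg and Ms4a3 had fold changes below 0 in edgeR (-0.04 and -0.02). How many of all tested genes reach such counts was not computed, and the 36 genes are strongly correlated. Without 699 the median over the 36 genes was 0.40 with 36 of 36 above 0, and 2 had an unadjusted p under 0.05. In that fit 0 were called, and the share of all genes at this p is not given here. Without 692 the median was -0.19 and without 694 it was -0.15. With the mouse as a block, which pairs the ulnae of an animal, it was 0.13 with 34 of 36 above 0, and 0 were called.

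**Figure D4:**
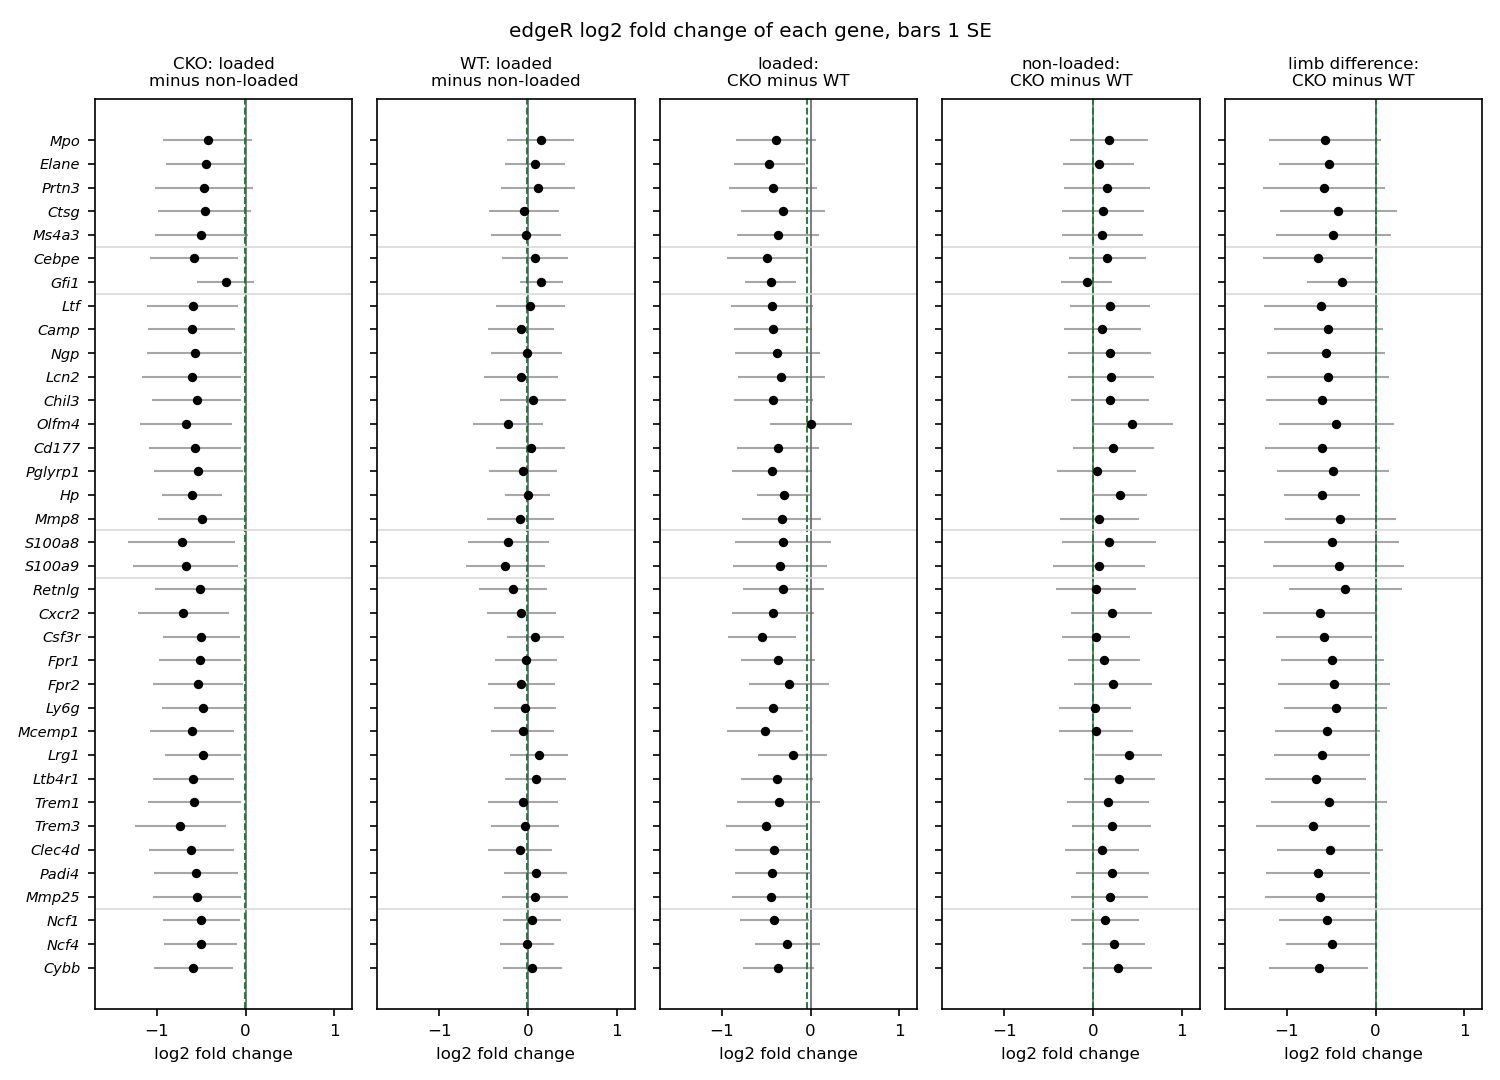
Log2 fold change of each of the 36 genes in 5 edgeR comparisons (points) with 1 SE to either side (bars), ordered by role, with the median of all tested genes as a dashed line. All 36 points lie left of 0 for loading in CKO and for the difference between genotypes in the limb effect, and no point lies more than 1.80 SE from 0 in any comparison.

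Genotypes were compared within a limb. In loaded ulnae 0 of 36 genes were called between CKO and WT, as were 0% of all genes in edgeR, and 0 of 36 had an unadjusted p under 0.05, against 6.81% of all genes; the share of members lay below that of all genes. DESeq2 and limma voom also called 0, with 0 at an unadjusted p under 0.05. The log2 fold changes (CKO over WT) ran from -0.55 to 0.0025 with a median of -0.38, against -0.04 over all genes, and 35 of 36 were below 0. Among lists of other cells the medians were -0.53 for osteoclast, -0.46 for megakaryocyte, -0.43 for T and NK cell and -0.37 for B lineage genes. For monocyte and macrophage genes the median was -0.37, and it was -0.32 for erythroid, -0.25 for osteoblast and -0.23 for progenitor genes. It was -0.04 for eosinophil, 0.05 for osteocyte, 0.13 for basophil and mast cell and 0.64 for muscle genes. Gfi1 (-0.45 ± 0.29, adjusted p = 0.607 in edgeR), Csf3r (-0.55 ± 0.39, 0.621) and Mcemp1 (-0.51 ± 0.43, 0.662) had the smallest p. Mpo stood at -0.39 ± 0.45 and S100a8 at -0.32 ± 0.54, at edgeR adjusted p = 0.735 and 0.812. With the muscle score as a covariate the median over the genes was 0.02, and without mice 686 and 688 it was -0.56. It was -0.22 without mouse 698 and -0.20 without 692. The muscle share was 13.9 ± 2.22% of counts in CKO loaded and 10.8 ± 2.82% in WT loaded ulnae.

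In non-loaded ulnae 0 of 36 genes were called, again with 0% of all genes in edgeR, and 0 of 36 had an unadjusted p under 0.05, against 3.04% of all genes; DESeq2 and limma voom gave 0 by either measure. Of the log2 fold changes 35 of 36 were above 0, from -0.07 for Gfi1 to 0.44 for Olfm4, with a median of 0.17 against -0.0030 over all genes. Among lists of other cells the medians were 0.71 for eosinophil, 0.46 for erythroid, 0.35 for megakaryocyte and 0.34 for B lineage genes. For basophil and mast cell genes the median was 0.26, and it was 0.24 for T and NK cell, 0.19 for monocyte and macrophage and 0.16 for progenitor genes. It was -0.03 for muscle, -0.16 for osteoclast, -0.54 for osteoblast and -0.62 for osteocyte genes. Lrg1 (0.40 ± 0.38), Hp (0.31 ± 0.30) and Olfm4 (0.44 ± 0.45) had the smallest p, each at an adjusted p of 0.976 in edgeR. S100a8 and Mpo stood at 0.18 ± 0.53 and 0.18 ± 0.44, both at an edgeR adjusted p of 0.995. The direction turned without 1 mouse. Without 691 the median over the 36 genes was -0.29 with 1 of 36 above 0. Without 699 it was 0.67 with 36 of 36 above 0 and 18 at an unadjusted p under 0.05. The share of all genes at this p without 699 is not given here. The 36 genes are strongly correlated, so the 18 are not separate results. Without 691 and 699 together the median was 0.26, and without mice 686 and 688 it was 0.25. It was 0.34 without 688, and 0.04 to 0.11 without 685, 686, 687, 690 or 694 in turn. In each case 0 of 36 were called.

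The difference between genotypes in the effect of loading used the same libraries once more. It gave 0 of 36 called genes and 0% of all genes in edgeR, and 0 of 36 at an unadjusted p under 0.05, against 2.6% of all genes, with 0 by either measure in DESeq2 and limma voom. The estimates (CKO limb effect minus WT limb effect) were below 0 for 36 of 36, from -0.71 to -0.34, with a median of -0.54 against 0.0028 over all genes. Among lists of other cells the medians were -0.81 for megakaryocyte, -0.78 for erythroid, -0.72 for eosinophil and -0.72 for B lineage genes. For T and NK cell genes the median was -0.58, and it was -0.52 for monocyte and macrophage, -0.46 for progenitor and -0.42 for osteoclast genes. It was -0.13 for basophil and mast cell, 0.28 for osteoblast, 0.64 for muscle and 0.70 for osteocyte genes. Hp (-0.60 ± 0.42), Ltb4r1 (-0.67 ± 0.57) and Cybb (-0.64 ± 0.56) had the smallest p, each at an adjusted p of 0.697 in edgeR, and Mpo and S100a8 stood at -0.57 ± 0.63 (0.715) and -0.50 ± 0.76 (0.784). With the mouse as a block the median over the 36 genes was -0.61. It was -0.14 without mouse 691, and -0.96 without 699, with 16 of 36 at an unadjusted p under 0.05. It was -0.54 without both, -0.82 without mice 686 and 688, and 0.03 with the muscle score as a covariate. The share of all genes at this p without 699 is not given here, and the 16 are strongly correlated genes. None of these settings called any of the 36.

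Of 58 other genes tied to neutrophils, 56 had enough counts for the tests, and 0 were called in any of the 5 comparisons. The list also holds regulators and chemokines, and not all are particular to neutrophils. Irf8 is also in the monocyte and macrophage list and Mmp9 in the osteoclast list. Their median log2 fold changes were -0.50 for loading in CKO (53 of 56 below 0), 0.01 for loading in WT (33 above 0), -0.39 between genotypes in loaded ulnae (50 below 0), 0.18 in non-loaded ulnae (46 above 0) and -0.55 for the difference of the limb effects (53 below 0). These medians were close to those of the 36 genes, and the part of other cells in them was not tested. Cxcl1, a chemokine gene that draws neutrophils through Cxcr2, had the smallest p for loading in both genotypes. Its log2 fold change was 1.91 ± 0.72 in CKO and 1.61 ± 0.57 in WT, at edgeR adjusted p = 0.739 and 0.9998, and it had 2 to 62 counts per library. Csf3, the gene for granulocyte colony-stimulating factor, had 0 counts in 14 libraries and at most 5, and was not tested. Cebpa, which acts before Cebpe in granulocyte precursors, stood at -0.43 ± 0.18 for loading in CKO and -0.42 ± 0.16 between genotypes in loaded ulnae (edgeR adjusted p = 0.739 and 0.601). Irf8, a factor of the monocyte branch, stood at -0.44 ± 0.21 between genotypes in loaded ulnae (0.601).

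Markers of some other cells moved with the 36 genes across libraries, and those of muscle and osteoblasts moved against them. Over 22 libraries the mean log2 CPM of the 36 genes had a correlation of -0.681 with that of 20 skeletal muscle genes, 0.826 with 10 monocyte and macrophage genes and 0.806 with 8 eosinophil genes. Without WT non-loaded 699 and CKO non-loaded 691 these values were -0.376, 0.705 and 0.694 (n = 20). With 8 B lineage genes the correlation over 22 libraries was -0.098, with 9 erythroid genes 0.587 and with 10 osteoblast genes -0.568. The early-minus-mature difference ran otherwise: it had a correlation of 0.243 with the muscle genes, -0.663 with the B lineage genes and -0.667 with 8 T and NK cell genes, and 0.470, -0.695 and -0.804 without those 2 libraries. The summed monocyte and macrophage level was 397 to 807 CPM in CKO loaded, 635 to 1337 in CKO non-loaded, 649 to 1018 in WT loaded and 629.6 to 1289.6 in WT non-loaded ulnae, with all 10 genes counted in every group. The summed B lineage level was 139 to 243, 248 to 318, 118 to 373 and 97.1 to 329 CPM in the same groups, and the lowest WT values belonged to mouse 692 in both limbs. The summed eosinophil level was 281 to 716, 456 to 1240.3, 167 to 776 and 185 to 1655 CPM in these groups, and that of the T and NK cell genes 22.4 to 34.0, 33.9 to 83.0, 30.0 to 56.1 and 24.7 to 79.6 CPM. No gene of these lists was at 0 in all libraries, and CKO loaded 698 was the lowest of its group in each of these 4 sums. The part of these cells in the results above was not tested.

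**Figure D5:**
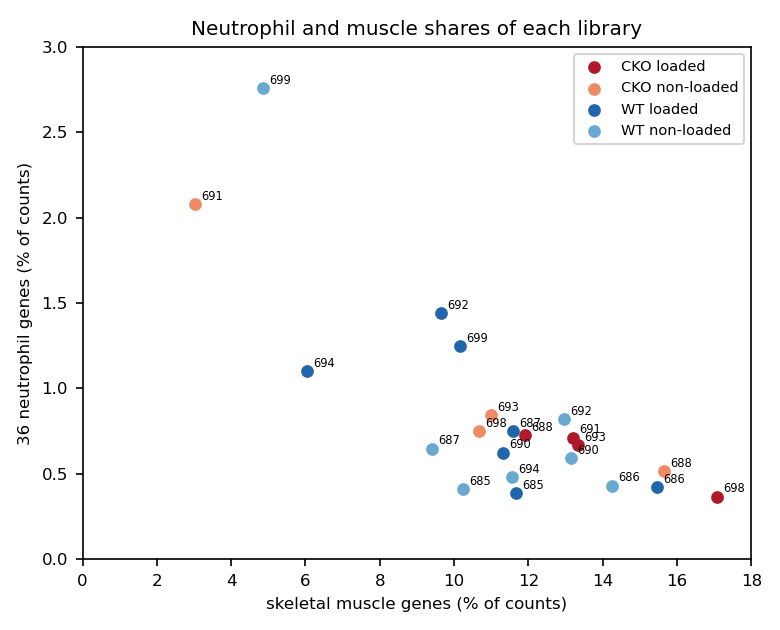
Share of all counts taken by the 36 neutrophil genes (vertical axis, percent) against the share taken by 20 skeletal muscle genes (horizontal axis, percent), 1 point for each library, coloured by group and marked with the mouse number. CKO non-loaded 691, with 3.02% muscle, and WT non-loaded 699 stand at the upper left, and CKO loaded 698, with 17.1% muscle, at the lower right.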

How the data were processed

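Per the labels' protocols, bone was kept in RNAlater, ground in Trizol and purified with RNeasy, and libraries were made with the SMARTer stranded total RNA kit from 4 ng of total RNA. STAR, RSEM and the build GRCm38 are named in the submitters' processing notes; their versions, the annotation and the strand setting are not given in sources used here. Values deposited by the authors are estimated counts per gene (unit: expected counts), whole numbers as deposited, and were used unscaled. Depth was 21999891 to 42833729 counts per library, and 25428 of 25471 identifiers had a symbol in GENCODE M21, which also gave coordinates, exon lengths and overlaps.

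Genes passing filterByExpr (18793) were scaled by TMM and fitted over the 4 groups with edgeR 4.0.16 (robust quasi-likelihood test, 18 residual degrees of freedom, and 0.271 as biological coefficient of variation), with limma 3.58.1, DESeq2 1.42.0 and R 4.3.3. P-values are two-sided and adjusted by Benjamini-Hochberg over all tested genes, with a threshold of 0.05; an SE is the log2 fold change divided by the square root of its F. Log2 CPM used a prior count of 2. Scripts were tested on simulated data. The mice are separate animals, and the ulnae of a mouse carry its number, so the numbers pair the libraries; the deviations of the ulnae of a mouse from their group means had correlations of -0.256 to 0.415, over 0.1 in 7 of 11 mice. The fit without the mouse is the one reported, and the fit with it as a block (9 residual degrees of freedom) is given where it moves a result. Other alternatives were DESeq2, limma voom with the mouse as a random effect, other scalings, no filter, only the groups compared, scores of 20 muscle and 9 erythroid genes as covariates, other makeups of the stage scores, and fits without mice. The members, the gene lists and the tests were chosen with earlier results of these data known. Values in each CKO library and the lowest, median and highest value of each WT group are given for chosen members. These are S100a8, Mpo, the member of each role with the highest mean CPM and the 3 members with the smallest p in each comparison. Other genes come from lists of neutrophil genes and of cell type markers.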

Additional observations from a re-analysis of the deposited data

Results flagged for a closer look

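In 15 of 82 groups of 4 or 7 libraries 1 library stood apart from the others by Dixon's criterion at the 95% level, which chance passes in about 5% of groups; the genes are strongly related, so these are not separate events. WT non-loaded 699 accounted for 12 of them. Its values, with those of the other 6 WT non-loaded ulnae in parentheses, were 4222 CPM for Ngp (660.1 to 1426), 3711 for S100a8 (474 to 1017), 4036 for S100a9 (452 to 891) and 593 for Cybb (130.4 to 231). They were 496 CPM for Retnlg (75.3 to 147), 219 for Csf3r (53.2 to 86.3), 103 for Cebpe (16.8 to 28.3) and 82.9 for Mcemp1 (16.2 to 31.3). Ltb4r1 stood at 56.9 CPM (11.6 to 20.0), Trem3 at 51.2 (8.64 to 18.3) and Gfi1 at 35.05 (11.1 to 16.8). The mean log2 CPM of the 36 genes was 7.94 in this library (5.58 to 6.52). CKO non-loaded 691 was high for Csf3r, at 154 CPM against 64.7 to 68.0 CPM in the other 3 CKO non-loaded ulnae. CKO loaded 698 was low for Ltb4r1, at 11.6 CPM against 18.3 to 20.1 CPM, and for S100a9, at 517 CPM against 791 to 842 CPM, in the other 3 CKO loaded ulnae. Muscle genes took 4.86%, 3.02% and 17.1% of the counts of these 3 libraries.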

How the results depend on the processing

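No setting called any of the 36 genes in any comparison. The 9 values that moved by more than the spread between mice or libraries were the median genotype difference in loaded ulnae, at 0.025 with the muscle score and -0.037 with muscle and erythroid scores, and the stage difference. This difference, as the mean of CKO and of WT mice, was 1.28 and 1.30 with Cebpe and Gfi1 added to the early genes, 3.24 and 3.21 with specific granule genes in their place, 1.30 and 1.29 with S100a8 and S100a9 in and Lrg1 and Padi4 out of the mature genes, and 2.34 in WT with medians over genes. Among single genes 27 values changed sign and 508 did not. With the muscle score these were, for loading in CKO, S100a8 (0.041) and Mpo (0.23, and 0.20 with erythroid too), between genotypes in loaded ulnae S100a8 (0.22 and 0.13) and Mpo (0.0048), in non-loaded ulnae Mpo (-0.032 and -0.038), and for the interaction S100a8 (0.14 and 0.074) and Mpo (0.036 and 0.011). With the mouse as a block, pairing the ulnae, S100a9 for loading in WT was at 0.082, with voom at 0.038, and the block changed no call. Without mice 691 and 699, loading gave 0.048 for Mpo in CKO and 0.14, 0.37 and 0.33 for Olfm4, S100a9 and S100a8 in WT. Leaving out 1 mouse at a time, Mpo ran from -0.57 to 0.035 for loading in CKO. For loading in WT, Mpo ran from -0.030 to 0.50, Olfm4 from -0.48 to 0.18, S100a9 from -0.50 to 0.40 and S100a8 from -0.45 to 0.37. Between genotypes in non-loaded ulnae, Lrg1 ran from -0.025 to 0.71, Olfm4 from -0.035 to 0.85, S100a8 from -0.31 to 0.92 and Mpo from -0.33 to 0.67. The causes were not tested. The block could not be fitted for genotype within a limb.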
